A study of Mus musculus with 87 samples.

Results

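The 9 genes described here encode the transcription factors by which hepatocytes are commonly defined: Hnf4a, Nr5a2, Foxa1, Foxa2, Foxa3, Onecut1, Cebpa, Cebpb and Cebpd. They were listed by symbol and are 9 of the 37991 genes in a table of transcript levels from mouse livers after partial hepatectomy (PH), an operation in which most of the liver is removed and the remainder regrows. HNF4A and NR5A2 (also called LRH-1) are nuclear receptors that drive genes of lipoprotein, clotting factor and bile acid production. FOXA1, FOXA2 and FOXA3 are forkhead proteins that open closed chromatin at liver enhancers, and ONECUT1 (HNF6) is a cut-homeodomain protein needed in liver and bile duct development. C/EBPα, C/EBPβ and C/EBPδ bind the same DNA element as dimers, but C/EBPα is known as a restraint on hepatocyte division and a driver of metabolic genes, whereas C/EBPβ and C/EBPδ are acute-phase factors and C/EBPβ is known to be needed for full regeneration, so the balance of Cebpa to Cebpb was followed as a measure of its own.

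Male C57BL/6 mice of 12 to 14 weeks, with no engineered allele named in the labels, were kept on a light and dark cycle with food given in the dark only, and PH or sham surgery was done at Zeitgeber time (ZT) 2, that is, 2 h after lights on. Sham surgery repeated the procedure, with its anesthesia and painkiller, without removing liver. PH livers (X) were taken at 1 h, 4 h, 10 h and 20 h, then every 8 h from 28 h to 44 h, at 48 h and 72 h, and at 1 and 4 weeks. Sham livers (S) were taken at 48 h and at the first 4 of these times, and livers of unoperated mice at 0 h (C0), at 4 h (C4, the hour of day of X4 and S4) and at 4 weeks (C4W). Groups are named below by letter and time, so that X4 is PH at 4 h and X1W is PH at 1 week. Each library came from the poly(A) RNA of 1 liver, 80 livers in 19 groups: 9 in C0, 6 each in X1, S1, X10, X20 and X36, 5 each in S4 and X48, 2 each in X4W and C4W, and 3 in each of the others. The livers were collected in 3 experimental periods: C0 in each of them, C4 in the third only, S10, S20, X4W and C4W in the second only, X28, X44, X48, S48, X72 and X1W in the first only, and the other groups in the first and the second. No source used here ties a replicate number to a period.

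Levels are given as RPKM, the reads of a gene scaled to its length and to the reads mapped in the library, which allows genes to be compared per length. The estimated depth was 12.2 to 48.4 M reads (M for mega) per library, with a median of 26.6 M. The 12 hepatocyte marker genes summed to high levels in all groups, with medians between 44570 and 70310 RPKM, and none of the groups lacked them. In C0, replicate 8 stood apart with macrophage markers summing to 222.3 RPKM and neutrophil markers to 54.0 RPKM, against group medians of 35.4 and 1.37 RPKM. In whole liver, fewer cells of a type and less RNA per cell cannot be told apart. Replicates 1 to 3, 4 to 6 and 7 to 9 of a group also differed from each other, and for Cebpb and Cebpd this difference was among the largest of all genes, so both are given by replicate numbers below.

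All 9 genes were above the detection threshold, a log2 RPKM above -1.5 in at least 1 library. Hnf4a and Cebpa were the most abundant per length, with means over all libraries of 6.79 and 5.78 on the log2 RPKM scale, followed by Cebpb at 4.77 and Foxa3 at 4.40. Nr5a2 at 3.19, Foxa2 at 2.74, Cebpd at 1.90 and Foxa1 at 1.85 were lower, and Onecut1 was lowest at -0.07. The first 8 were above the threshold in each of the 80 libraries, and Onecut1 in 69 of them. Between the highest and the lowest group mean, levels of Cebpd spanned 4.63 log2 units, of Cebpb 3.32, of Onecut1 3.21, of Foxa2 2.18, of Foxa1 2.14, of Cebpa and Foxa3 1.81 each, of Hnf4a 1.21 and of Nr5a2 1.03. In these group means the 2 nuclear receptors were the steadiest of the set and the acute-phase C/EBP genes the most variable.

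In mm9, the build of the files, Cebpa lies at chr7:35904312-35906945 and Cebpb at chr2:167514415-167515918, each as a single exon on the plus strand, and Cebpd, which the table types as a pseudogene, at chr16:15887379-15888559. Hnf4a lies at chr2:163332544-163398646 and Onecut1 at chr9:74709728-74737591 on the plus strand. Nr5a2 at chr1:138740161-138857004, Foxa1 at chr12:58641618-58647108, Foxa2 at chr2:147868613-147872705 and Foxa3 at chr7:19598631-19608887 are on the minus strand.

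Promoters are printed for Cebpa and Cebpb, whose balance was followed, and for Foxa1, one of the forkhead genes that were lower after surgery, as the 250 bases before the RefSeq start site (GRCm38.p6), 5′ to 3′ on the strand of the gene. Of the 9 genes, 8 had a promoter entry, with 12 start sites in all, and Cebpd had none. Capitals mark matches, on either strand, to TTGCG (a part of the C/EBP site), TATAAA (the TATA box), TGACG (a part of the cAMP response element), CCAAT (the box of that name) and TGTTTAC (a forkhead site).
Cebpa (chr7:35119043-35119292, plus strand): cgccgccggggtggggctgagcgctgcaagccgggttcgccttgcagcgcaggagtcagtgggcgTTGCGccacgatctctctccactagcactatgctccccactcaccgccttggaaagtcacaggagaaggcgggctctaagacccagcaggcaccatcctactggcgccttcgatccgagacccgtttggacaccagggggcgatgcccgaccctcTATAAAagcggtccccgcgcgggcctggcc
Cebpb (chr2:167688665-167688914, plus strand): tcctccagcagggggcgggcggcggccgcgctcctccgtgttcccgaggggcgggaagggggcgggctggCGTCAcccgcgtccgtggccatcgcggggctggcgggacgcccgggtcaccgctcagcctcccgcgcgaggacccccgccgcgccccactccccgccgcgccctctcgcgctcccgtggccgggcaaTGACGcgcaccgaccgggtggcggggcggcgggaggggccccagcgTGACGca
Foxa1 (chr12:57546112-57546361, minus strand): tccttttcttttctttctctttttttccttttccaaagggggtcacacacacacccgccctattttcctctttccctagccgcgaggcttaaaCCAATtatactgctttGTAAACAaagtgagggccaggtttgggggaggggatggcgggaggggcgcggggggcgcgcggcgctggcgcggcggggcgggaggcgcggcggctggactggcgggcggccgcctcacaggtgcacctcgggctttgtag
The Cebpa promoter held the C/EBP letters 185 bases and the TATA box 30 bases before the start. The Cebpb promoter, at 81.6% GC, held TGACG 3 times, at 180, 53 and 7 bases before the start, and no TATA box. The Foxa1 promoter held CCAAT at 157 and the forkhead letters, as GTAAACA on the printed strand, at 141 bases before the start, and no other promoter of the set held the forkhead site. Of 32851 promoters of the same length, 14.5% held the C/EBP letters, 12.4% the TATA box, 17.8% the letters of the cAMP response element, 33.85% the CCAAT box and 3.17% the forkhead site. AAGGTCA, the letters of an NR5A site, and the STAT palindrome TTCNNNGAA were in none of the 12 promoters of these genes, against 4.08% and 7.02% of all. No match overlapped another in the 3 promoters printed, and such matches describe the letters only.

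Tests compared groups in limma on log2(RPKM + 0.25), with Benjamini-Hochberg adjustment over 15396 genes, and calls needed both an adjusted p under 0.05 and a log2 difference beyond 0.5. All differences below are log2 differences on that scale, which understates the change of low genes. The share of all tested genes called in either direction is given with each comparison as its background.

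Cebpa was the member that set PH apart from sham surgery. It fell after PH relative to sham at 4, 10, 20 and 48 h, in each case with no overlap between livers, and lay near unoperated levels at 1 and 4 weeks. At 4 h, Cebpa stood at 29.5, 29.5 and 38.6 RPKM in the X4 livers and at 51.2, 83.5, 83.1, 72.1 and 83.2 RPKM in the S4 livers. The log2 difference was -1.18 (SE 0.19, adjusted p = 3.8e-06). Of the 9 members Cebpa was the only one called at 4 h, where 8.64% of all genes were called, 5.48% lower, and the members' median difference was -0.52 against -0.04 over all genes. At 10 h, the X10 livers ranged from 38.03 to 63.1 RPKM with a median of 48.0 and the S10 livers stood at 98.2, 104 and 83.0 RPKM, a difference of -0.96 (SE 0.18, adjusted p = 1.5e-04). At 20 h, the X20 livers ranged from 36.0 to 54.6 RPKM with a median of 44.9 and the S20 livers stood at 78.1, 82.2 and 96.6 RPKM, a difference of -0.97 (SE 0.18, adjusted p = 1.9e-04). Again Cebpa alone of the 9 members was called at 10 h and at 20 h, where 7.02% and 7.11% of all genes were called, 3.62% and 2.61% lower.

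At 48 h, Cebpa was at 28.5, 34.5, 31.8, 27.4 and 28.1 RPKM in X48 and at 58.5, 63.4 and 44.0 RPKM in S48, a difference of -0.86 (SE 0.19, adjusted p = 1.2e-04). In this comparison 2 of the 9 members were called, Cebpa lower and Foxa1 higher, against 27.2% of all genes, 24.5% higher and 2.69% lower. The median over all genes was 0.27 higher in X48 than in S48, and after all libraries were brought to 1 common median (median scaling) the Cebpa difference was -1.35 (adjusted p = 4.9e-08). At 1 h the groups overlapped, X1 at 44.1 to 75.9 RPKM (median 49.7) and S1 at 45.8 to 78.1 RPKM (median 57.6), with a difference of -0.16 (95% interval -0.45 to 0.13, adjusted p = 0.84). None of the 9 members was called at 1 h, where limma called 0.65% of all genes, and 1 member, Foxa2, had an unadjusted p below 0.05. The change in the Cebpa difference from 1 h to 4 h was itself past the threshold, at -1.02 (SE 0.24, adjusted p = 0.0042), while no change from one of the later times to the next passed the test (adjusted p = 0.73 to 1). The 4 lowered values held their call in every alternative run, with differences between -1.35 and -0.79.

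**Figure D1:**
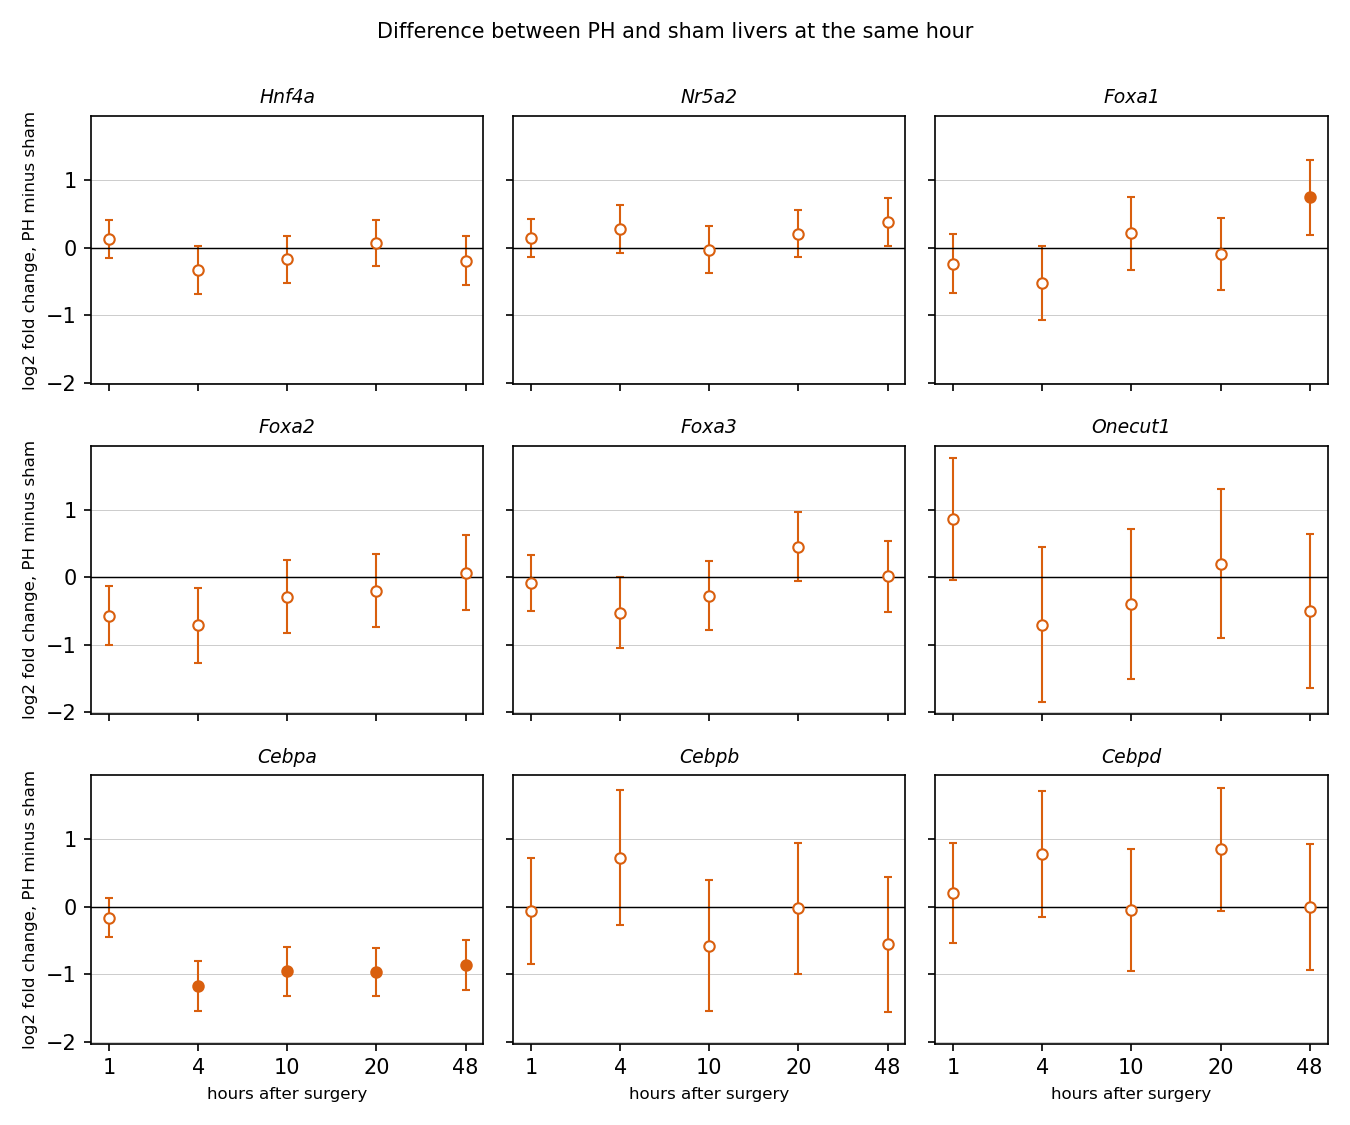
Log2 differences of PH minus sham (y axis, on the log2(RPKM + 0.25) scale) for the 9 genes at the 5 times with sham livers, with 95% intervals as bars, filled circles for called differences and open circles for those not called. Cebpa lies near 0 at 1 h and between -1.18 and -0.86 at the later times, and the only other filled circle is Foxa1 at 48 h.

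Between sham and unoperated livers, Cebpa was called in S10 alone. S10 was taken at ZT12 and C0 at ZT2, so hour of day and operation cannot be told apart in that call. C0 ranged from 51.4 to 83.2 RPKM (median 68.7) and C4 stood at 103, 74.7 and 115 RPKM. S1 against C0 differed by -0.19 (adjusted p = 0.30), S4 against C4 by -0.38 (95% interval -0.76 to -0.01, adjusted p = 0.070) and S48 against C0 by -0.29 (adjusted p = 0.24). S10 exceeded C0 by 0.50 (adjusted p = 0.012) and C4 exceeded C0 by 0.52 (adjusted p = 0.029), both at the edge of the fold threshold. Each was lost in 11 of 22 alternatives, with lowest values of 0.28 for S10 (median scaling, adjusted p = 0.19) and 0.34 for C4 (C0 replicates 1 to 3). In C4 against C0 no other member was called, against 7.89% of all genes, 5.81% higher.

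Against unoperated livers, Cebpa was lower by 1.56 (SE 0.21, adjusted p = 3.0e-09) in X4 than in C4 and by 1.15 (SE 0.14, adjusted p = 1.6e-10) in X48 than in C0, with no overlap in either. C4 was collected in another period than X4 and S4, so period and operation cannot be told apart in any comparison with C4. Values of X28 were 59.0, 42.2 and 52.5 RPKM, and X28 rose over X4, taken at the same hour of day, by 0.65 (SE 0.21, adjusted p = 0.0097), a call lost without replicate 1 (0.54, adjusted p = 0.064) or replicate 5 (0.59, adjusted p = 0.057) and with median scaling (0.41, adjusted p = 0.13). X44 stood at 29.4, 23.5 and 31.6 RPKM and fell below X20, again at the same hour of day, by 0.64 (SE 0.18, adjusted p = 0.0049), a call lost without replicate 2 (adjusted p = 0.076). X36 ranged from 36.1 to 72.8 RPKM (median 45.2) and differed from C0 by -0.51 (adjusted p = 7.7e-04), and X72 stood at 29.9, 46.1 and 55.8 RPKM and differed by -0.65 (adjusted p = 9.6e-04). Both overlapped C0. The X36 call fell under the fold threshold without replicate 1, 3, 5 or 6, at -0.48 to -0.42, and with C0 replicates 7 to 9 alone (-0.37, adjusted p = 0.070), and the X72 call was lost without replicate 1 (-0.38, adjusted p = 0.12). X1W was at 85.0, 81.0 and 67.01 RPKM, X4W at 83.1 and 77.1 RPKM and C4W at 98.2 and 97.9 RPKM. Ordered by mean, Cebpa ran from C4W down to X44, and each of the 18 neighbouring pairs of groups lay closer than the larger of their SDs.

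**Figure D2:**
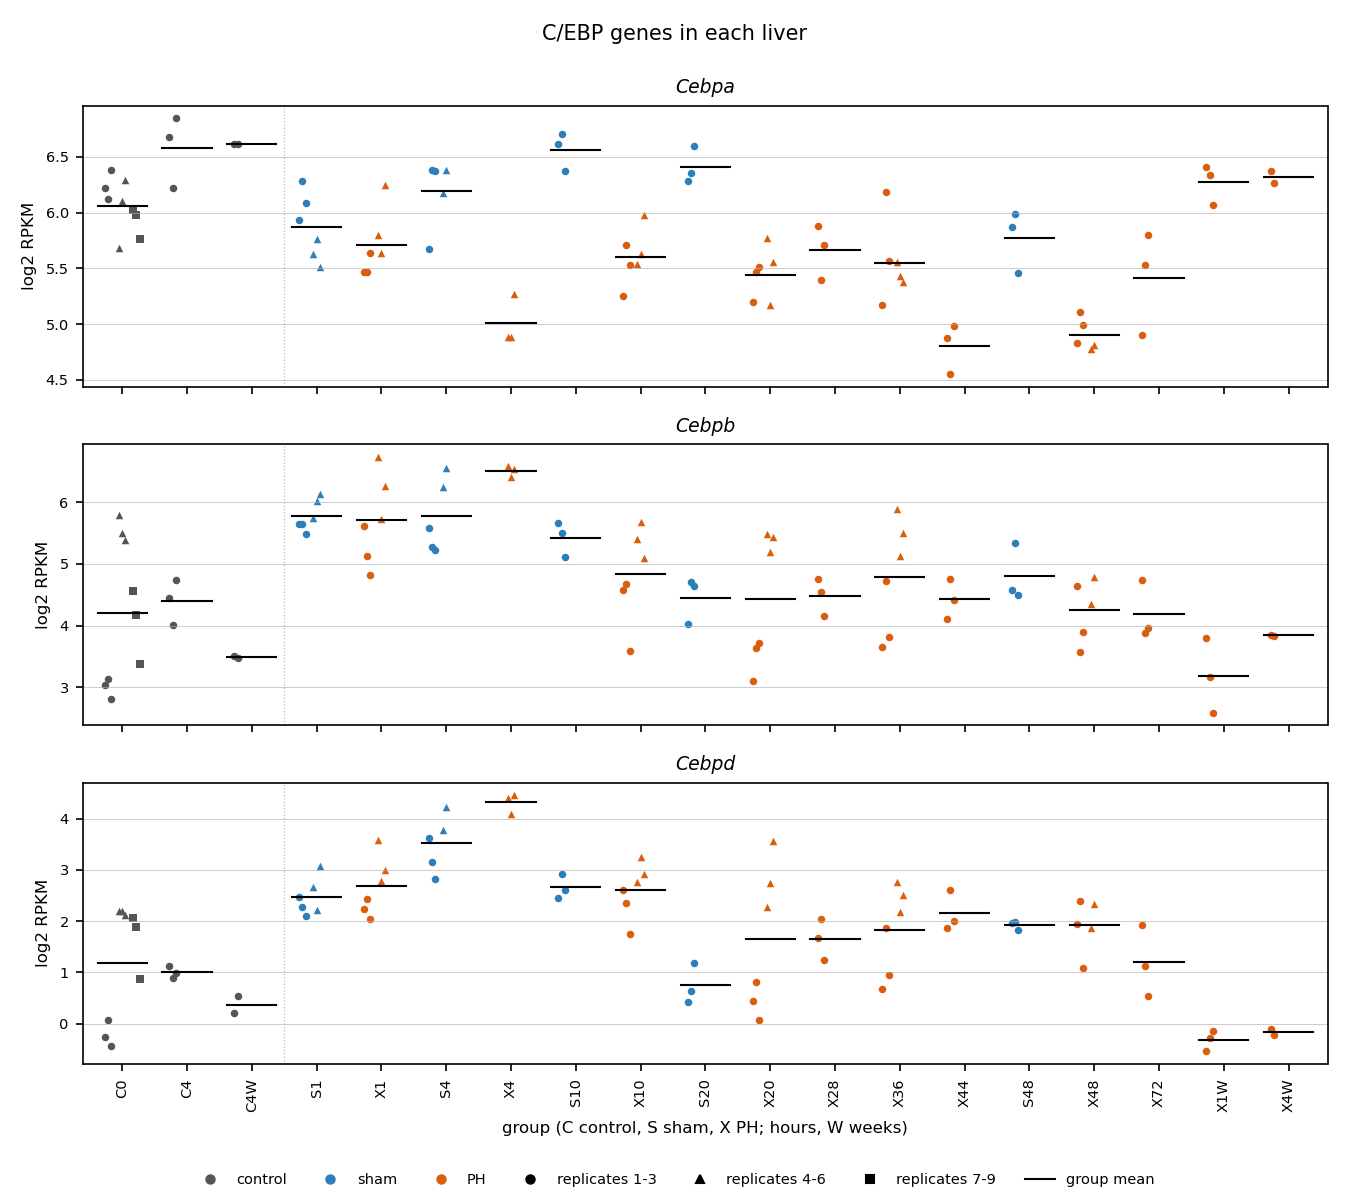
Levels of Cebpa, Cebpb and Cebpd in every liver (y axes, log2 RPKM) by group (x axis, unoperated, sham and PH livers), 1 point per liver with the group mean as a bar. Cebpa is lowest in X44, X48 and X4, while Cebpb and Cebpd are highest in X4 and widely spread in C0, X20 and X36.

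Cebpb and Cebpd were higher at 4 h after either operation than in C4. In C4, Cebpb stood at 21.8, 16.02 and 26.6 RPKM, in S4 at 47.6, 38.7, 37.5, 75.9 and 94.1 RPKM and in X4 at 96.1, 84.6 and 92.5 RPKM. Neither S4 nor X4 overlapped C4, with differences of 1.37 (SE 0.50, adjusted p = 0.016) for S4 and 2.10 (SE 0.56, adjusted p = 0.0011) for X4. The S4 call was lost without replicate 2 (1.30, adjusted p = 0.099), and with the replicate number as a block the X4 difference was 0.83 (adjusted p = 0.055). No C4 liver shares a replicate number with an X4 liver, so this block value rests on differences between numbers in other groups. Cebpd was at 2.17, 1.86 and 1.98 RPKM in C4, at 12.4, 8.87, 7.05, 13.7 and 18.8 RPKM in S4 and at 21.3, 17.0 and 21.9 RPKM in X4. Its differences from C4, 2.38 (SE 0.47, adjusted p = 1.6e-05) in S4 and 3.17 (SE 0.52, adjusted p = 5.9e-07) in X4, were the largest of any member in those comparisons and held in every alternative run.

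X4 exceeded S4 by 0.73 for Cebpb (95% interval -0.27 to 1.73, adjusted p = 0.39) and by 0.78 for Cebpd (95% interval -0.15 to 1.72, adjusted p = 0.30), with overlap in both, so a difference between PH and sham was not shown at 4 h. All 3 X4 livers are numbered 4 to 6, and the S4 livers numbered 4 and 5 were the highest of S4 for Cebpb, at 75.9 and 94.1 RPKM, and for Cebpd, at 13.7 and 18.8 RPKM. Neutrophil markers, which mark a cell type that also expresses both genes, summed to 1.37 to 5.54 RPKM in C4, 7.30 to 45.0 RPKM in S4 and 4.62 to 9.80 RPKM in X4, and their part in the rise was not tested. The X10 livers, at 12.0 to 51.2 RPKM for Cebpb and 3.34 to 9.53 RPKM for Cebpd, already lay below every X4 liver. X10 was not tested against X4. X28 stood at 26.9, 23.4 and 17.9 RPKM for Cebpb and 3.18, 4.14 and 2.36 RPKM for Cebpd. X28 was lower than X4 by 2.01 (SE 0.56, adjusted p = 0.0030) for Cebpb and by 2.57 (SE 0.52, adjusted p = 6.6e-05) for Cebpd, with no overlap. The Cebpb call was lost with the replicate block (-0.74, adjusted p = 0.12), and X28 and X4 share no replicate number either.

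At the other times the values of Cebpb and Cebpd differed with the replicate numbers. In C0, Cebpb was at 8.21, 8.77 and 7.01 RPKM in replicates 1 to 3, at 55.5, 45.4 and 42.0 RPKM in replicates 4 to 6 and at 23.7, 18.1 and 10.4 RPKM in replicates 7 to 9. Replicates 4 to 6 exceeded replicates 1 to 3 by 2.53 on the log2(RPKM + 0.25) scale, a difference that 27 of 15396 genes exceeded, and Cebpd by 2.10, while Cebpa differed by -0.22. In X20, Cebpb was at 8.57, 12.4 and 13.1 RPKM in replicates 1 to 3 and at 44.5, 36.6 and 43.1 RPKM in replicates 4 to 6, with S20 at 16.2, 26.0 and 24.9 RPKM between them. At 20 h PH against sham therefore gave -0.95 for Cebpb with X20 replicates 1 to 3 (adjusted p = 0.023), 0.91 with replicates 4 to 6 (adjusted p = 0.021) and -0.02 with all (adjusted p = 1). For Cebpd, X20 was at 1.36, 1.74 and 1.05 RPKM in replicates 1 to 3 and at 4.85, 6.71 and 11.8 RPKM in replicates 4 to 6. Whether the replicate numbers follow the experimental periods was not tested, since the sources do not tie them. In C0 the neutrophil markers summed to 1.34 to 1.72 RPKM in replicates 1 to 3 and 0.454 to 0.812 RPKM in replicates 4 to 6, the opposite order to Cebpb. In X20 they summed to 1.43 to 4.83 RPKM in replicates 1 to 3 and 3.62 to 13.2 RPKM in replicates 4 to 6, the same order as Cebpb and Cebpd, and their part in the split was not tested.

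For the same reason the sham rise over C0 depended on which C0 livers were used. At 1 h, S1 stood at 44.5 to 70.5 RPKM (median 51.8) for Cebpb and 4.27 to 8.48 RPKM (median 5.20) for Cebpd, differing from C0 by 1.56 (SE 0.36, adjusted p = 9.0e-04) and 1.16 (SE 0.34, adjusted p = 0.0082). Within replicates 4 to 6 of both groups the differences were 0.40 (adjusted p = 0.53) and 0.46 (adjusted p = 0.43). The Cebpd call was also lost without replicate 1 (1.00, adjusted p = 0.062) or replicate 2 (1.07, adjusted p = 0.056). At 1 week, Cebpb was at 13.9, 8.99 and 6.02 RPKM and Cebpd at 0.689, 0.828 and 0.908 RPKM, the lowest group means of both genes. X1W fell below C0 for Cebpd by 1.30 (SE 0.43, adjusted p = 0.014), but within replicates 1 to 3 the difference was -0.08 (adjusted p = 0.89), and without replicate 2 the adjusted p was 0.051. In that comparison 2 of 9 members were called, Cebpd lower and Nr5a2 higher, against 16.9% of all genes, 12.4% higher and 4.48% lower.

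The balance of Cebpa to Cebpb, taken inside each library as the ratio of their RPKM, is free of the scaling between libraries. It favoured Cebpa in the unoperated groups, at 4.32 to 4.71 in C4, 8.60 and 8.78 in C4W and 0.93 to 11.9 in C0. It was inverted in X4: the ratios were 0.31 to 0.42, so that all 3 livers held more Cebpb than Cebpa, against 0.88 to 2.21 in S4, where 2 of 5 livers did. The log2 ratio differed by -1.92 between X4 and S4, with no overlap. An exact permutation test, two-sided, gave p = 0.018, the smallest that 3 livers against 5 allow, and 0.089 after Benjamini-Hochberg adjustment over the 5 times, so the inversion did not pass the adjusted threshold. Left with the S4 livers numbered 4 and 5, the difference was -1.37.

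At the other times no difference in the balance between PH and sham passed the test. Ratios in X1 were 0.52 to 1.77 and in S1 0.65 to 1.56, with 4 of 6 and 3 of 6 livers holding more Cebpb than Cebpa. Differences in the log2 ratio were -0.10 at 1 h, -0.38 at 10 h, -0.94 at 20 h and -0.31 at 48 h (exact permutation test, two-sided, adjusted p = 0.51 to 0.76), with overlap each time when all livers were pooled. By replicate numbers, X10 replicates 4 to 6 had log2 ratios of -0.05 to 0.88, all below S10 at 0.96 to 1.26, and X20 replicates 4 to 6 of -0.02 to 0.29, all below S20 at 1.66 to 2.27. Those differences were -0.82 and -1.83 (exact permutation test, adjusted p = 0.17 for each), whereas with replicates 1 to 3 they were 0.07 and -0.05. With 3 livers against 3, this test cannot give a p below 0.05 whatever the values, so it decides nothing for these subsets. X10 and X20 came from 2 periods and S10 and S20 from 1 of them. At 1 week the ratio was back at 6.10 to 11.1 and at 4 weeks at 5.41 and 5.75. Within groups the replicate numbers again mattered: mean log2 ratios were 3.25 in C0 replicates 1 to 3 and 0.46 in replicates 4 to 6, and 1.91 and 0.13 in X20.

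**Figure D3:**
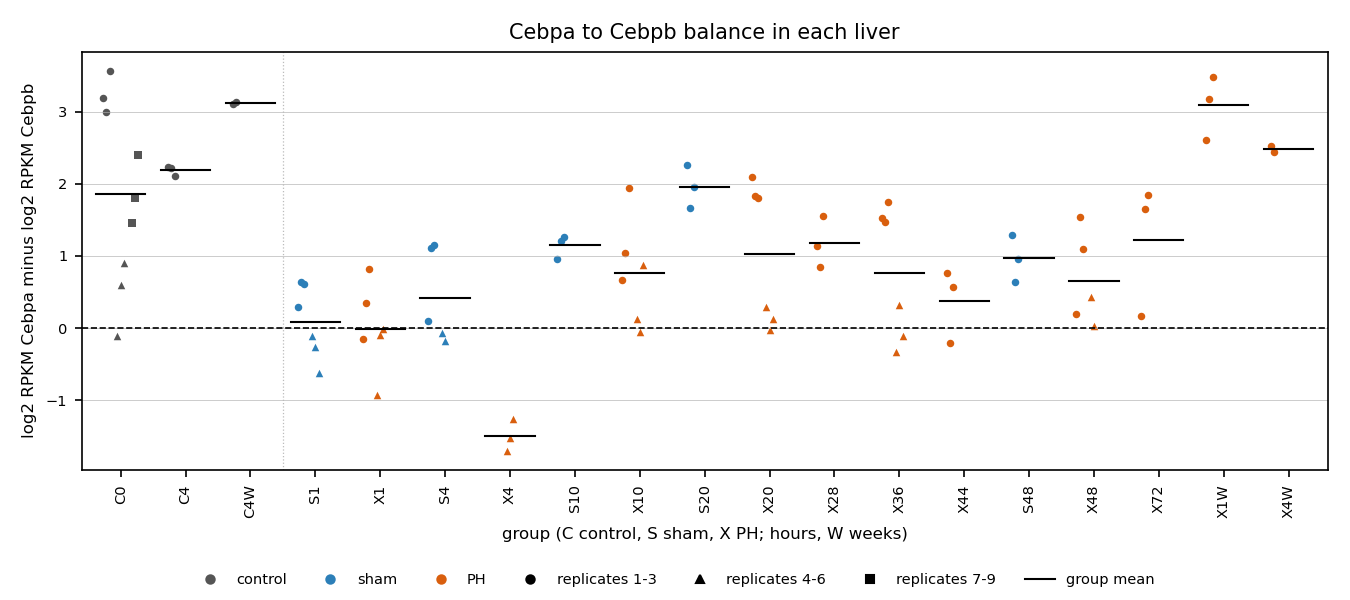
Cebpa to Cebpb balance (y axis, log2 of Cebpa RPKM over Cebpb RPKM in each liver) by group (x axis), with points marked by replicate number and the line at 0 where both genes are equal. The 3 X4 livers lie between -1.70 and -1.26, below every other liver, and C0 spans -0.11 to 3.57.

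Foxa1 and Foxa2 fell within 1 h of sham surgery, and were as low or lower after PH. Foxa1 ranged from 2.86 to 8.71 RPKM (median 4.01) in C0, from 1.23 to 2.65 RPKM (median 1.62) in S1 and from 1.05 to 2.06 RPKM (median 1.27) in X1. Foxa2 ranged from 5.29 to 16.4 RPKM (median 8.46) in C0, from 2.15 to 5.27 RPKM (median 3.42) in S1 and from 1.34 to 3.27 RPKM (median 2.23) in X1. No S1 liver reached the lowest C0 liver for either gene. S1 was lower than C0 by 1.27 (SE 0.20, adjusted p = 2.4e-06) for Foxa1 and by 1.44 (SE 0.20, adjusted p = 1.7e-07) for Foxa2, and both calls held in every alternative run. In S1 against C0, 6 of 9 members were called, with Foxa1 and Foxa2 lower and Hnf4a, Foxa3, Cebpb and Cebpd higher, against 7.77% of all genes, 2.44% higher and 5.34% lower. The Foxa3 call (0.59, limma adjusted p = 0.017) was lost in 8 of 22 alternatives and reversed in sign in 1. In replicates 4 to 6, Foxa3 averaged 15.8 RPKM in S1 and 14.8 RPKM in C0. X1 and S1 differed by -0.24 (95% interval -0.68 to 0.20, adjusted p = 0.84) for Foxa1 and by -0.57 (95% interval -1.01 to -0.13, adjusted p = 0.35) for Foxa2.

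Foxa1 overlapped C0 again by 4 h after sham surgery and by 10 h after PH. At 4 h it was at 1.51, 1.59 and 1.68 RPKM in X4, at 1.70, 1.95, 2.44, 2.82 and 3.44 RPKM in S4 and at 3.59, 3.18 and 4.65 RPKM in C4, and S4 differed from C4 by -0.60 (adjusted p = 0.059), while X4 lay below C4 by 1.12 (SE 0.31, adjusted p = 0.0016). X4 was below every S4 liver as well, but by 0.52 only (adjusted p = 0.23). X28, at 5.04, 3.92 and 3.58 RPKM, rose over X4 by 1.25 (SE 0.31, adjusted p = 9.3e-04). In X28 against X4, 4 of 9 members were called, Foxa1 and Cebpa higher and Cebpb and Cebpd lower, against 28.3% of all genes, 22.6% higher and 5.72% lower. Foxa2 was at 3.25, 5.63 and 4.33 RPKM in X4 and at 7.66, 7.00 and 9.50 RPKM in C4, a difference of -0.86 (SE 0.31, adjusted p = 0.016) that was lost without replicate 3 (adjusted p = 0.063) or replicate 4 (adjusted p = 0.10) and with median scaling (-0.59, adjusted p = 0.098). Foxa2 in S4 ranged from 5.09 to 10.2 RPKM and overlapped C4, with a difference of -0.14 (95% interval -0.70 to 0.41, adjusted p = 0.69), and X4 differed from S4 by -0.71 (adjusted p = 0.075). In X4 against C4, 7 of 9 members were called, 4 higher and 3 lower, against 45.6% of all genes, 11.7% higher and 33.9% lower.

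Cholangiocytes, the bile duct cells, also express Foxa1 and Foxa2, and the sum of their 10 markers was also lower at 1 and 4 h. It had medians of 44.4 RPKM in C0, 25.3 in S1 and 23.9 in X1. At 4 h the medians were 44.85 RPKM in C4, 25.6 in S4 and 17.3 in X4. The sum was thus lower in S4 than in C4, while Foxa2 in S4 overlapped C4 (difference -0.14, limma adjusted p = 0.69). At 10 h it was 22.2 RPKM in X10 and Foxa1 was at 4.45 to 9.01 RPKM (median 5.26). The sum is mostly Spp1, at a median of 21.8 RPKM over the libraries, and 7 of the other 9 markers had medians below 1 RPKM. The part of bile duct cells in the Foxa1 and Foxa2 values was not tested.

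At 48 h Foxa1 was the only member called higher after PH than after sham surgery. It stood at 5.22, 6.83, 4.54, 6.24 and 5.11 RPKM in X48 and at 4.57, 2.96 and 2.40 RPKM in S48, with an overlap of 1 liver, X48 replicate 3, which lay below the highest S48 liver. The difference of 0.75 (SE 0.28, adjusted p = 0.024) was lost with median scaling (0.28, adjusted p = 0.46), without a filter on low values (adjusted p = 0.062), without replicate 2 (0.62, adjusted p = 0.16) and without replicate 3 (0.62, adjusted p = 0.14). Foxa2 gave 0.07 in the same comparison (adjusted p = 0.88). Stellate cell markers were higher in X48 than in S48 for 6 of 9 genes. They summed to 67.2 to 118.4 RPKM in X48 against 53.8 to 57.3 RPKM in S48. Cholangiocyte markers summed to 35.5 to 48.3 RPKM in X48 and 22.9 to 33.2 RPKM in S48, without overlap. Of 8 tested cholangiocyte markers, 1 was called higher. Of all genes, 24.5% were called higher in X48 than in S48, and their median difference was 0.27. The part of either cell type in the values was not tested.

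Foxa3, the most abundant of the forkhead genes per length, went the other way. It stood at 14.1, 23.6 and 18.6 RPKM in C4 and at 45.5, 36.4, 56.0, 33.0 and 31.5 RPKM in S4, with no overlap and a difference of 1.09 (SE 0.26, adjusted p = 3.1e-04). In X4 it was at 27.3, 26.8 and 28.0 RPKM, a difference of 0.57 from C4 (adjusted p = 0.095, or 0.85 with median scaling, adjusted p = 0.016) and -0.53 from S4 (95% interval -1.05 to 0.00, adjusted p = 0.19), below every S4 liver. In S10 it was at 30.04, 34.1 and 29.0 RPKM, higher than C0 (7.68 to 19.01 RPKM, median 15.3) by 1.22 (SE 0.24, adjusted p = 2.6e-05), and in X36 at 25.9 to 39.1 RPKM (median 31.1), higher by 1.25 (SE 0.19, adjusted p = 5.2e-08). Both calls held in every alternative run, although both groups were taken at another hour of day than C0, which cannot be told apart from the operation. At 1 week Foxa3 was back at 14.5, 11.7 and 8.53 RPKM.

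**Figure D4:**
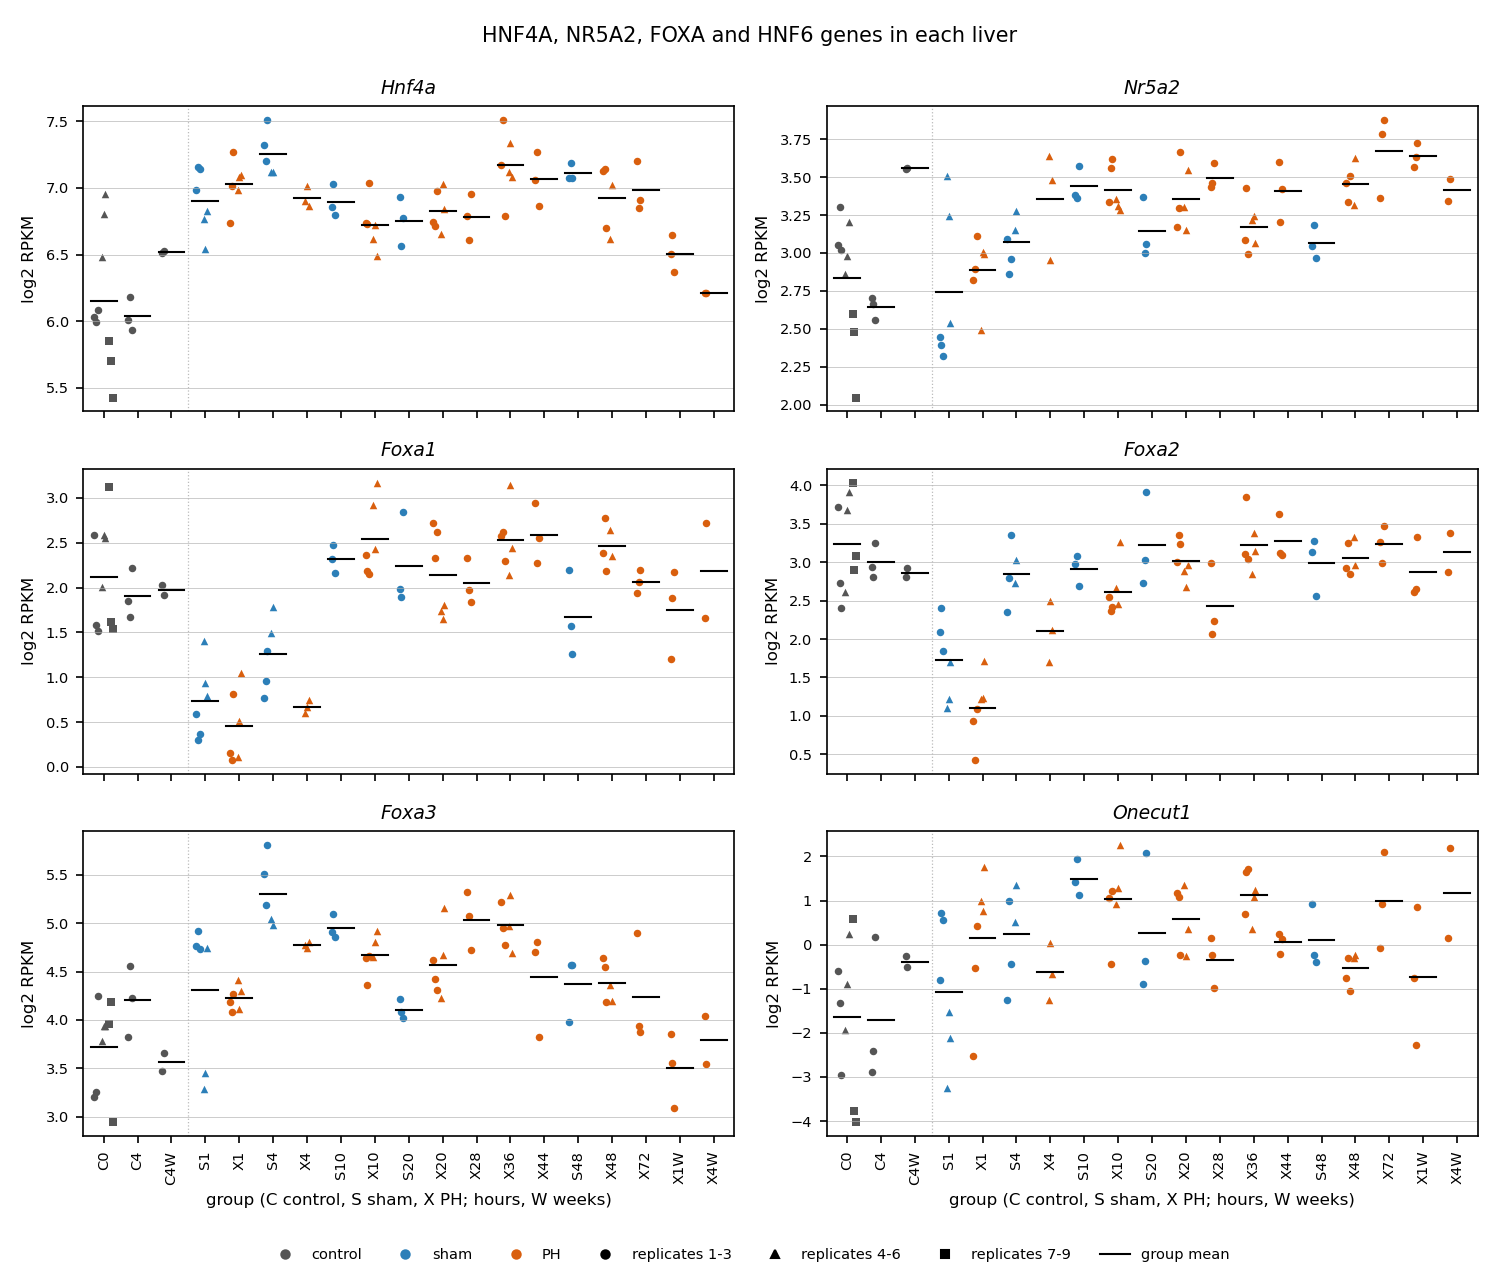
Levels of Hnf4a, Nr5a2, Foxa1, Foxa2, Foxa3 and Onecut1 in every liver (y axes, log2 RPKM) by group (x axis), 1 point per liver with the group mean as a bar. Foxa1 is lowest in X1, X4 and S1 and Foxa2 in X1 and S1, Foxa3 and Hnf4a are highest in S4, and Onecut1 is the most scattered.

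Hnf4a was high in every liver, from 43.0 RPKM in a C0 liver to 182 RPKM in livers of S4 and X36. It was higher at 4 h after either operation than in C4, which came from another period: C4 stood at 64.4, 72.6 and 61.2 RPKM, S4 at 160, 147, 182, 139 and 139 RPKM and X4 at 120, 129 and 116 RPKM. The differences from C4 were 1.21 (SE 0.18, adjusted p = 4.9e-08) for S4 and 0.88 (SE 0.20, adjusted p = 1.5e-04) for X4, without overlap, and both held in every alternative run. X4 lay below every S4 liver, by 0.33 (95% interval -0.68 to 0.03, adjusted p = 0.24). In S4 against C4, 4 of 9 members were called, all higher (Hnf4a, Foxa3, Cebpb and Cebpd), against 43.3% of all genes, 12.2% higher. The members' median difference was 1.09 while that of all genes was -0.22.

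Hnf4a was not called between PH and sham at any time, with differences from -0.33 to 0.13. At 48 h, X48 stood at 140, 141, 104, 98.1 and 130 RPKM and S48 at 135, 146 and 135 RPKM, a difference of -0.19 (adjusted p = 0.42) that became -0.68 (adjusted p = 0.0030) with median scaling. Against C0, Hnf4a was called higher in S1, S10, S20, S48, X36, X48 and X72, by 0.60 to 1.02. In S10, S20 and X36 the hour of day differed from that of C0 and cannot be told apart from the operation. With median scaling the values were 0.46 in S20, 0.27 in X48 (adjusted p = 0.095) and 0.445 in X72, all no longer called, and 0.64 in X36. C0 itself was split, with 65.3, 63.6 and 68.0 RPKM in replicates 1 to 3, 89.5, 112 and 124 RPKM in replicates 4 to 6 and 57.9, 52.1 and 43.0 RPKM in replicates 7 to 9. Within replicates 4 to 6, S1 and C0 differed by -0.03 (adjusted p = 0.97), and with C0 replicates 4 to 6 alone the calls in S1, S10, S20, S48, X36, X48 and X72 were lost. The gene has 2 RefSeq start sites in separate promoters, and levels per gene cannot separate their transcripts.

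The remaining comparisons with C0 add the following counts. In S10, 7 of 9 members were called, all higher, against 29.1% of all genes, 17.9% higher. The calls of Nr5a2, Cebpa and Cebpb in S10 were lost with median scaling. S10, S20 and X36 were taken at ZT12, ZT22 and ZT14 and C0 at ZT2. For these groups hour of day and operation cannot be told apart. In S20, Hnf4a alone was called, against 12.1%, 7.85% higher, and in S48 again Hnf4a alone, against 8.88%, 3.83% higher. In X36, Hnf4a, Foxa3 and Onecut1 were higher and Cebpa lower, 4 of 9 against 35% of all genes, 25.7% higher and 9.29% lower. In X48, Hnf4a, Nr5a2 and Foxa3 were higher and Cebpa lower, 4 of 9 against 38.1%, 30.4% higher and 7.66% lower. The 3 higher calls in X48 were lost with median scaling, while Foxa2 became called lower (-0.65, limma adjusted p = 0.0061). In X72, Hnf4a, Nr5a2 and Onecut1 were higher and Cebpa lower, 4 of 9 against 33.2%, 26.6% higher and 6.59% lower. Except in S10, these shares were near the background. In X44 against X20 only Cebpa was called, against 16.1%, 3.11% lower, and in X4W against C4W limma called none of the 9, with 0 at an unadjusted p below 0.05, against 0.065% of all genes with 2 livers in each group.

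Nr5a2 varied least of the set and was highest late. It ranged from 4.13 to 9.88 RPKM (median 7.88) in C0, stood at 6.52, 6.34 and 5.88 RPKM in C4, at 12.5, 7.75 and 11.2 RPKM in X4, at 10.3, 13.8 and 14.7 RPKM in X72 and at 11.8, 12.4 and 13.2 RPKM in X1W. Neither X72 nor X1W overlapped C0, and X4 did not overlap C4. The differences were 0.70 (SE 0.20, adjusted p = 0.0023) for X4 against C4, 0.81 (SE 0.16, adjusted p = 2.5e-05) for X72 and 0.78 (SE 0.16, adjusted p = 1.6e-04) for X1W against C0. After sham surgery, S4 also lay above every C4 liver, at 7.26 to 9.69 RPKM. That difference was 0.41 (limma adjusted p = 0.042), under the fold threshold, and 0.64 with median scaling (limma adjusted p = 4.4e-04). The X4 and X1W calls held in every alternative run, and the X72 value was 0.43 with median scaling (adjusted p = 0.011). At 4 weeks the PH livers, at 10.2 and 11.2 RPKM, lay beside unoperated livers at 11.7 and 11.8 RPKM, so the high late values were shared by C4W. Between PH and sham Nr5a2 was not called at any time, and at 48 h, with X48 at 9.98 to 12.4 RPKM above S48 at 8.26, 9.09 and 7.81 RPKM, the difference was 0.38 (adjusted p = 0.080), or -0.11 with median scaling (adjusted p = 0.67).

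Onecut1 had the lowest level and the widest scatter, with an estimated 2.80 to 315 reads per library. In C0 alone it ranged from 0.061 to 1.505 RPKM (median 0.398), and the SD of a group had a median of 0.87 log2 units, against 0.23 for Cebpa. S10 stood at 2.70, 3.85 and 2.17 RPKM, above every C0 liver, with a difference of 2.23 (SE 0.52, adjusted p = 3.1e-04) that held in every alternative run. X36 ranged from 1.27 to 3.29 RPKM (median 2.23) and exceeded C0 by 1.89 (SE 0.41, adjusted p = 6.7e-05), a call lost within replicates 4 to 6 (1.34, adjusted p = 0.051). X72 exceeded C0 by 1.79 (SE 0.52, adjusted p = 0.0031), lost without replicate 3 (1.19, adjusted p = 0.098). S10 and X36 were taken at ZT12 and ZT14 and C0 at ZT2, so hour of day and operation cannot be told apart there. Each of the 18 neighbouring pairs of groups in the order of Onecut1 lay closer than the larger of their SDs.

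Ordered by their group means, most neighbouring groups could not be told apart by their spread. Of the 18 neighbouring pairs, the gap exceeded the larger SD in 2 for Hnf4a, 1 for Nr5a2, 1 for Foxa1 (S4 over S1), 1 for Foxa2 (S1 over X1), 1 for Foxa3 (S10 over X4), 2 for Cebpb (X4 over S1, and X4W over C4W) and 3 for Cebpd (X4 over S4, S4 over X1, and C4W over X4W). X4 headed the order for Cebpb and Cebpd and X1W closed it. X44 headed it for Foxa1 and Foxa2, with X1 last in both, S4 for Foxa3 and Hnf4a, X72 for Nr5a2 and S10 for Onecut1. C4 was last for Hnf4a, Nr5a2 and Onecut1, and X1W for Foxa3.

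Livers of the same group deviated together for some members. After removing group means, over 80 livers in 19 groups, Cebpb and Cebpd correlated at r = 0.85, Foxa2 and Onecut1 at 0.70, Foxa1 and Foxa2 at 0.62, and Onecut1 with Foxa1 and with Cebpa at 0.51 each. Cebpa and Cebpb correlated at 0.06. These livers share replicate numbers and libraries, and the values are descriptions. Over the 19 group means and 9694 protein-coding genes, the gene most like Cebpd was Pfkfb3, a glycolytic regulator (r = 0.95), with Cebpb second (0.92). Cebpd, typed as a pseudogene, was not among the genes searched. Of those searched, Pim3, a kinase gene, was most like Cebpb (0.91), slightly below the correlation of Cebpb with Cebpd (0.92). Foxa1 was most like Hhex, a homeobox gene of liver and bile duct development (0.92), Hnf4a most like Il6ra, the interleukin-6 receptor gene (0.91), and Foxa3 most like D230037D09Rik (0.93), with Por, the electron donor of cytochromes P450, second (0.90). Nr5a2 was most like Sec24c (0.90), Foxa2 most like Zfp874b (0.88), Cebpa most like Glrx2 (0.86) and Onecut1 most like Camkk2 (0.78). The remaining genes of the first 3 were Dcun1d3 and Shb for Hnf4a, Tbck and Gsk3b for Nr5a2, Zfp553 and 2810459M11Rik for Foxa1, Gm15446 and Irf1 for Foxa2, Gnl3 for Foxa3, Heatr5b and 8030462N17Rik for Onecut1, Hist2h2aa2 and Hist1h4h for Cebpa, Fbxo31 and Csrnp1 for Cebpb and BC031781 for Cebpd, with r between 0.75 and 0.91.

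Among 27 tested genes of 30 other liver-enriched transcription factors, 2 were called higher and 6 lower in X4 than in S4, with a median difference of -0.29. Those that fell included the PAR bZIP genes Tef (-1.90, adjusted p = 8.8e-08) and Dbp (-1.14, adjusted p = 0.014), which follow the circadian clock, and Hhex (-1.503, adjusted p = 0.022) and Tbx3 (-1.14, adjusted p = 0.011). In S1 against C0, 1 was higher and 7 lower, among them Hhex (-2.23, adjusted p = 1.5e-06), Tbx3 (-1.16, adjusted p = 1.9e-04) and Nr2f2 (-1.001, adjusted p = 6.0e-07), in the comparison in which Foxa1 and Foxa2 also fell. Of 13 tested partners and inhibitors of C/EBP proteins, 1 was higher and 6 lower in X4 than in S4. They included Ddit3 (CHOP, -2.21, adjusted p = 1.5e-07), which forms inactive dimers with C/EBP proteins, and the pseudokinase gene Trib3 (-1.55, adjusted p = 5.2e-04). Cebpa was thus not alone among bZIP genes in being lower after PH at 4 h.

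Genes of the signals known to induce Cebpb and Cebpd were followed as a list. Of 19 acute-phase and glucocorticoid signal genes, 9 were higher and 0 lower in S1 than in C0, with Per1 (2.28, adjusted p = 5.5e-06), Sgk1 (1.24, adjusted p = 7.1e-06) and Tsc22d3 (1.13, adjusted p = 0.0092), all known glucocorticoid targets, and 11 were higher and 4 lower in S4 than in C4, with Il1r1 (3.82, adjusted p = 5.7e-11) and Socs3 (2.76, adjusted p = 6.6e-08). In X4 against S4, 3 of the 19 were higher, Irs2 (1.45, adjusted p = 0.010), Sgk1 (1.11, adjusted p = 0.0043) and Ppargc1a (0.97, adjusted p = 0.014), and 0 lower. Of 16 C/EBP target genes, 10 were higher and 3 lower in S4 than in C4, led by the acute-phase genes Lcn2 (9.19, adjusted p = 2.4e-18) and Saa2 (8.98, adjusted p = 1.1e-16). Saa1 and Saa2 are near-identical and may share reads. Between X4 and S4, 1 of the 16 was called higher, again Ppargc1a, and 0 lower, in the comparison in which Cebpa fell.

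Of 10 FOXA target genes, 4 were higher and 0 lower in S1 than in C0, led by Igfbp1 (2.82, adjusted p = 3.7e-06) and G6pc (1.74, adjusted p = 9.0e-05), while Foxa1 and Foxa2 were lower. Of 23 HNF4A target genes, 1 was higher and 6 lower in X48 than in S48, where Hnf4a itself was not called. Apoa4, an apolipoprotein gene, was higher (2.13, adjusted p = 5.3e-05), and Pklr, the liver pyruvate kinase gene, lower (-1.06, adjusted p = 0.0033). At 10 h, 1 was higher and 3 lower, among them Cyp7a1, the rate-limiting enzyme of bile acid synthesis (-3.62, adjusted p = 1.7e-05). The lists share members with each other, and their counts stand beside backgrounds of 8.64%, 7.77%, 43.3%, 27.2% and 7.02% of all genes called in X4 against S4, S1 against C0, S4 against C4, X48 against S48 and X10 against S10. By direction, 5.48% of all genes were lower in X4 than in S4 and 3.62% lower in X10 than in S10. In S1 against C0, 2.44% were higher and 5.34% lower, and in X48 against S48, 24.5% higher and 2.69% lower. In S4 against C4, 12.2% were higher.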

How the data were processed

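The deposited table holds log2 RPKM per gene and liver, made by the authors from single-end reads of stranded poly(A) libraries with TopHat2 2.0.13, Bowtie2, SAMtools 0.1.19 and featureCounts, per the labels and the study's methods, on mm9 with Ensembl genes. Reads with several positions were split among them, which can affect near-identical genes. Of 84 columns of values, 80 matched a label and 4 were not used. Of 87 labelled samples, 7 (3 X4, 3 at 60 h after PH and 1 X4W) had no matching column and were not analysed here. Log2 values were returned to RPKM for levels. Depth was estimated from the smallest steps of low RPKM values times gene length, and estimated reads follow from it.

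Comparisons were fitted with limma 3.58.1 (R 4.3.3) on log2(RPKM + 0.25), a prior variance following the mean level, all 19 groups in 1 fit, over genes above a log2 RPKM of -1.5 in at least 1 library. The Cebpa to Cebpb balance was tested by two-sided exact permutation of livers. The code was tested on simulated data. Livers are individual animals per the labels. Named genes were the 9 members, the 3 genes most alike to each by correlation of group means among protein-coding genes with a mean log2(RPKM + 0.25) above 0, and up to 4 called genes with the largest difference of each list. The members, lists and tests were chosen with earlier results of these data known. Alternatives were other pseudocounts, filters and scalings, a replicate block, subsets of replicates, 2-group fits and leaving out each replicate. The count over the NR5A2 target list is not reported here.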

Additional observations from a re-analysis of the deposited data

Results flagged for a closer look

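Cebpa changed its difference between PH and sham from 1 h to 4 h. The log2 difference was -0.16 at 1 h and -1.18 at 4 h, a change of -1.02 (SE 0.24, limma adjusted p = 0.0042), with all 3 X4 livers below all 5 S4 livers. It was 1 of 36 changes between successive times, over the 9 genes, and no other passed the threshold.

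Foxa2 in X10 replicate 6 stood apart as the highest of 6 livers, at 3.26 log2 RPKM (9.61 RPKM), where the other X10 livers were at 5.14 to 6.31 RPKM. It was 1 of 80 such tests over groups of 4 to 10 livers, and chance alone picks out about 1 in 20. The same liver was also the highest of X10 for Foxa1, at 9.01 RPKM, Onecut1, at 4.79 RPKM, and Cebpa, at 63.1 RPKM.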

How the results depend on the processing

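Of 51 calls of a member in a comparison, 21 held under every alternative, 30 lost the call under at least 1 and 3 reversed their sign under at least 1. Why a call was lost or reversed was not tested, and some alternatives used fewer livers. Replicate numbers did not pair livers: in none of 17 comparisons did every same-numbered pair of livers correlate above 0.1. With the number as a replicate block, calls numbered 2 in PH against sham at 4 h and at 10 h, 4 in S10, 0 in S20 and 3 in S48 against C0, 1 in X1W and 0 in C4 against C0, and 2 in X44 against X20. With groups reduced to replicates 1 to 3, calls numbered 2, 4, 2 and 2 in PH against sham at 1, 4, 10 and 20 h, 3 in S20, 4 in S48, 7 in X72, 1 in X1W and 2 in C4 against C0, and 3 in X44 against X20. With replicates 4 to 6 they numbered 1 and 3 in PH against sham at 1 and 20 h, 2 in S1, 3 in S10, 2 in S20, 0 in S48, 2 in X36, 2 in X48 and 4 in C4 against C0, and 4 in X44 against X20. With C0 replicates 1 to 3 they numbered 2 in S20, 3 in S48, 7 in X36 and 1 in X1W, with C0 replicates 4 to 6, 2 in S1, 3 in S10, 0 in S48, 2 in X36, 2 in X48 and 2 in C4, and with C0 replicates 7 to 9, 2 in S20, 2 in S48 and 0 in C4. With median scaling they numbered 4 in S10, 0 in S20, 2 in X48, 2 in X72 and 0 in C4. Over all comparisons this scaling lost 13 calls and added 6. Those added included Nr5a2 (0.64) and Onecut1 (1.47) in S4 against C4 and Cebpb (-1.21) in X1W against C0. The Cebpa call in X28 against X4 was among those lost. Fits of only the 2 groups gave 3 in S10, 0 in S20, 0 in S48, 1 in X1W and 0 in C4. Without a filter, X48 against S48 gave 1 and C4 against C0 gave 0, and a filter on the mean gave 2 in S48.

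With replicates 4 to 6, signs reversed for Cebpb in X20 against S20 (0.91), Hnf4a (-0.035) and Foxa3 (-0.058) in S1, Cebpb in S10 (-0.14), S20 (-1.10), X48 (-0.99) and C4 (-1.16) against C0, and Cebpd in X44 against X20 (-0.68). With replicates 1 to 3 they reversed for Cebpd in S20 (0.79), X72 (1.20) and C4 (1.01) against C0 and for Cebpb in X72 (1.17) and in X44 against X20 (0.93). With C0 replicates 4 to 6 Cebpb reversed in S10 (-0.14) and X48 (-1.30), and with C0 replicates 1 to 3 Cebpb (1.17) and Cebpd (1.20) in X72.

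Leaving out 1 replicate number at a time gave 0 calls throughout in PH against sham at 1 h and in X4W against C4W, and 1 throughout at 4, 10 and 20 h. Calls ranged from 1 to 2 at 48 h, 4 to 6 in S1, 4 to 7 in S10, 1 to 2 in S20 and in S48, 3 to 5 in X36 and in X72, 1 to 2 in X1W and 0 to 1 in C4 against C0, with 4 throughout in X48. They ranged from 4 to 5 in S4 and 6 to 7 in X4 against C4, 3 to 4 in X28 against X4 and 0 to 1 in X44 against X20. The log2 balance of Cebpa to Cebpb, PH against sham, ranged from -0.24 to 0.05 at 1 h, -2.05 to -1.73 at 4 h, -0.55 to -0.21 at 10 h, -1.25 to -0.73 at 20 h and -0.69 to -0.03 at 48 h. Groups of 2 or 3 livers limit the comparisons of X72, X1W and X4W, and Onecut1 rests on few reads in its lowest libraries.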
